A study of Mus musculus with 2 samples.

Results

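Mir31, Mir489, Mir708, Mir221 and Mir222 are mouse microRNA genes known from work on muscle stem cells, and their levels were measured here in whole calf muscle of young mice. They were chosen by symbol for what is known of them, and all 5 were found among the 2202 annotated microRNA genes of the deposited tables. The libraries hold RNA selected below 30 nt from the gastrocnemius, a large calf muscle, of female mice aged 14 days. The strain was B6CASTF1/J, the first-generation cross of C57BL/6J with CAST/EiJ. There is 1 group of 2 biological replicates and no treatment, second age or second tissue, so levels are described and no groups are compared. The biosample of replicate 1 is named for 3 females and that of replicate 2 for 1 female. Both carry a single donor identifier, and nothing in the labels says that RNA was pooled or that the animals were unrelated.

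Satellite cells are the stem cells of skeletal muscle. They rest (quiescence) beneath the sheath of the fibre, enter the cell cycle as myoblasts when the muscle grows or is injured, and then fuse into fibres or return to rest. A microRNA acts through its seed, bases 2 to 8 of the mature strand, which pairs with messenger RNAs and lowers their output. In mouse satellite cells miR-31 restrains Myf5, a factor of myogenic commitment, miR-489 restrains Dek, a proliferation gene, and miR-708 restrains the adhesion protein tensin 3, and all of these are linked to rest. miR-221 and miR-222 restrain the cell cycle inhibitor Cdkn1b, are linked to dividing myoblasts, and are also known from endothelial cells.

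The mature strands usually studied for each gene are shown because the seeds decide which genes can share targets. Sequences are from RefSeq (GRCm38.p6, the assembly also called mm10), in which all 5 genes matched with 9 mature arms, and capitals mark the seed.
miR-31-5p: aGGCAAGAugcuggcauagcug
miR-489-3p: aAUGACACcacauauauggcagc
miR-708-5p: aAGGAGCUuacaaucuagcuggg
miR-221-3p: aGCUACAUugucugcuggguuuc
miR-222-3p: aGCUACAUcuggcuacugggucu
miR-28a-5p: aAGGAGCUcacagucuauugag
miR-425-5p: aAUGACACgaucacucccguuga
miR-221-3p and miR-222-3p share one seed and are identical over their first 8 bases, while 11 of their 23 positions match when laid side by side without gaps. miR-708-5p has the seed of miR-28a-5p, with 16 of 22 positions alike, and miR-489-3p has the seed of miR-425-5p, with 12 of 23 alike. The seed of neither arm of miR-31 occurred in another arm of the table.

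The genes lie at 4 places in the genome (mm10, GENCODE M21). Mir31 (ENSMUSG00000065408.1) is on chromosome 4, 88910557 to 88910662, minus strand, overlapping an exon of the long noncoding gene AL805899.1 on the same strand. Mir489 (ENSMUSG00000070107.1) is on chromosome 6, 3721897 to 3722003, minus strand, in an intron of Calcr, which encodes the calcitonin receptor, itself known for satellite cell rest. Mir708 (ENSMUSG00000076143.1) is on chromosome 7, 96249424 to 96249532, plus strand, in an intron of Tenm4, which encodes a teneurin, a transmembrane protein. Mir221 (ENSMUSG00000065422.1; 19146294 to 19146388) and Mir222 (ENSMUSG00000065471.1; 19146893 to 19146971) are neighbours on the minus strand of chromosome X, 504 nt apart. Neither overlaps another annotated gene.

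Levels are in CPM, a gene's same-strand reads scaled to an equal total of assigned microRNA reads in each library. Replicate 1 held 2672454 assigned reads of 8002643 (33.4%) and replicate 2 held 4292012 of 12134412 (35.4%), so 1 read was worth 0.374 CPM in replicate 1 and 0.233 CPM in replicate 2. Reads aligned to several places, 52.7% and 52.4% of the libraries, entered no gene. A count pools both arms of a hairpin, and intervals given here cover counting error only. The tissue label was checked against lists of marker genes. The endothelial list held 11.9% of counts in each replicate, more than the muscle fibre list. The muscle fibre list held 9.56% of counts in replicate 1 and 8.52% in replicate 2. Of its 7 genes, 6 were expressed (1 CPM or more in both replicates), with Mir206 far above the rest as counted. The Mir1a and Mir133a genes of that list have identical copies whose shared reads would be lost. Their counts are therefore lower bounds. Reads aligned to several places are missing from the total as well, so the share of the muscle fibre list is not bounded in either direction. Of 6 neural markers none was expressed (a mean over 0 came from Mir9-3 alone, with 0 and 4 reads), although Mir124a and Mir9 genes have identical copies whose shared reads would be lost.

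All 5 regulators were expressed, beside 16.7% of all 2202 genes, and together they made up a very small part of the pool. With all reads of the library as the denominator Mir489 averaged 0.642 CPM and 4 of the 5 passed. They held 0.0229% of counts in replicate 1 (611 reads, 95% exact binomial interval 0.0211% to 0.0247%) and 0.0244% in replicate 2 (1047 reads, 0.0229% to 0.0259%), a mean of 0.0236% ± 0.00108 (SD, n = 2). Mir708 and Mir221 supplied most of it. Mir708 gave 50.1% of the reads of the 5 genes in replicate 1 and 57.0% in replicate 2, and Mir221 gave 39.3% and 30.0%. The order of levels was Mir708, Mir221, Mir222, Mir31 and Mir489 in each replicate. It was the same with CPM divided by hairpin length, and the mature arms differ little in length (22 to 26 nt).

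**Figure D1:**
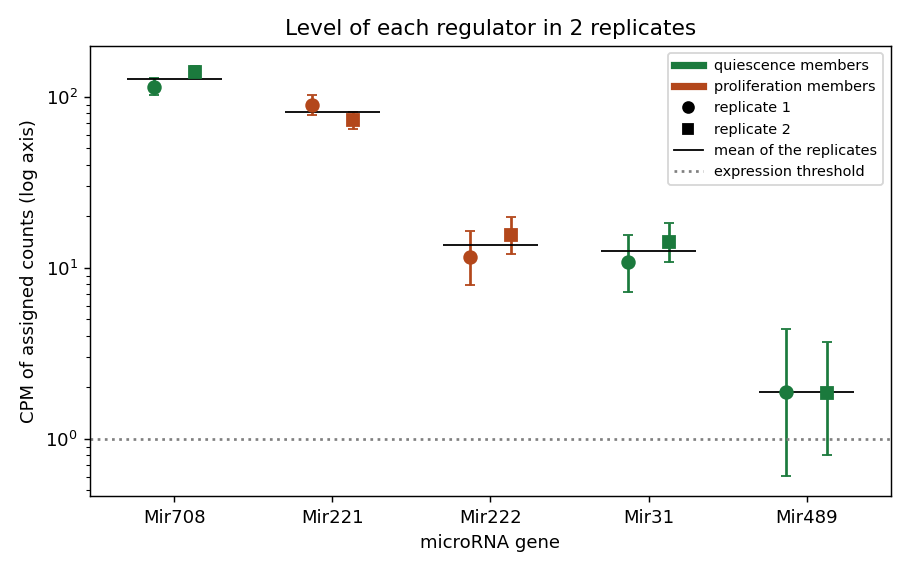
CPM of each gene (log axis) in replicate 1 (circles) and replicate 2 (squares), with 95% exact binomial counting intervals, the mean of the replicates (black line) and the expression threshold of 1 CPM (dotted). Mir708 is highest at a mean of 127 CPM and Mir489 lowest at 1.87 CPM, with intervals that reach below the threshold.

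Among the genes tied to rest, Mir708 had 115 CPM in replicate 1 (306 reads) and 139 CPM in replicate 2 (597 reads), a mean of 127 ± 17.4 CPM (SD, n = 2). It ranked 164th of all genes and was above 92.6% of them. It was the only regulator with a mean over 100 CPM, a level that 7.99% of all genes reached, and both its values lay above both values of Mir221. Its count may be a lower bound, because bases 2 to 23 of miR-708-5p stand within a stretch of 23 nt that it shares with Gm23134, a predicted microRNA gene on chromosome 2 (157562361 to 157562447). Gm23134 itself had 0 and 3 reads, and a read that lies wholly within the shared stretch has 2 possible origins.

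Mir31 had 10.9 CPM in replicate 1 (29 reads) and 14.2 CPM in replicate 2 (61 reads), a mean of 12.5 ± 2.38 CPM (SD, n = 2) at rank 254. Mir708 stood about an order of magnitude above it: the ratio of Mir31 over Mir708 was 0.0948 in replicate 1 (95% counting interval 0.0624 to 0.139) and 0.102 in replicate 2 (0.0772 to 0.133). The arms of Mir31 occur in no transcript of the annotation other than its own host exon, and its longest stretch shared with another microRNA hairpin was 12 nt.

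Mir489 was close to the limit of what these libraries can show. It had 5 reads in replicate 1 (1.87 CPM, 95% exact binomial interval 0.607 to 4.37) and 8 in replicate 2 (1.86 CPM, 0.805 to 3.67). Both intervals include values below 1 CPM, so its place above that threshold is within counting error. The replicate values nearly coincide, with an SD of 0.00496 CPM, but at so few reads that spread is much narrower than the counting intervals. Mir653, the microRNA gene that lies 511 nt from Mir489, also within Calcr, had 17 reads (6.36 CPM) in replicate 1 and 22 reads (5.13 CPM) in replicate 2. Mir489 was lower than this neighbour, with a ratio of Mir489 over Mir653 of 0.294 in replicate 1 (0.0848 to 0.831) and 0.364 in replicate 2 (0.140 to 0.848).

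Of the genes tied to dividing myoblasts, Mir221 had 89.8 CPM in replicate 1 (240 reads) and 73.2 CPM in replicate 2 (314 reads), a mean of 81.5 ± 11.8 CPM (SD, n = 2). At rank 184 it was the median of the 367 expressed genes. Mir222, its partner on the X chromosome, had 11.6 CPM in replicate 1 (31 reads) and 15.6 CPM in replicate 2 (67 reads), a mean of 13.6 ± 2.84 CPM at rank 248. The pair was uneven in both libraries, with Mir221 7.74-fold above Mir222 in replicate 1 (95% counting interval 5.31 to 11.6) and 4.69-fold above it in replicate 2 (3.59 to 6.20). Differences in the efficiency of adapter ligation between microRNAs were not measured, and they bear on every ratio between genes. The values of Mir222 and Mir31 overlapped, and the ratio of Mir222 over Mir31 was 1.07 in replicate 1 (0.623 to 1.84) and 1.10 in replicate 2 (0.765 to 1.58). Their order is therefore not settled at this depth, whereas the values of every other pair of neighbours in the order were separate.

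**Figure D2:**
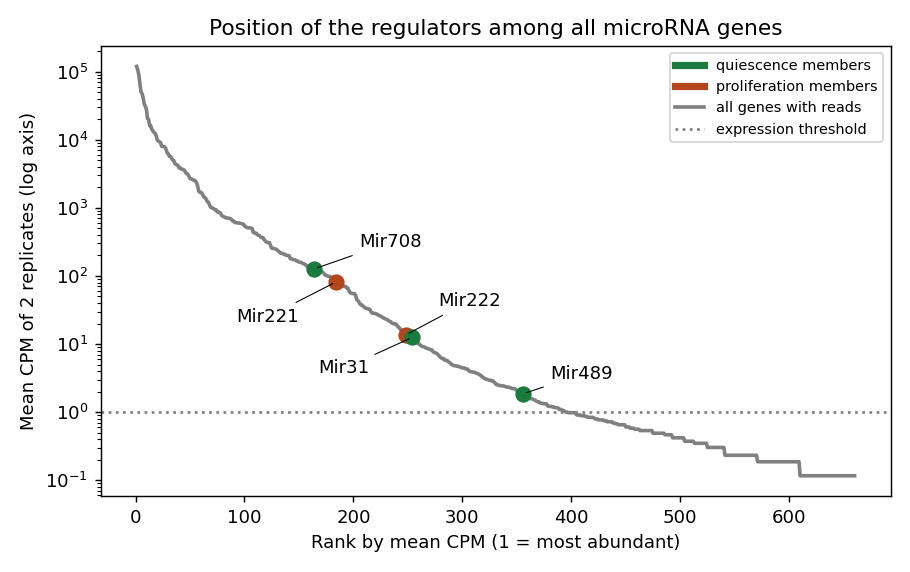
Mean CPM (log axis) of every microRNA gene with reads against its rank, with the 5 regulators marked and the threshold of 1 CPM dotted. Mir708 (rank 164) and Mir221 (rank 184) sit in the middle of the expressed genes, Mir222 (248) and Mir31 (254) lie together in the lower part, and Mir489 (356) is near the end of the 367 expressed genes.

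Genes with neighbouring ranks give a scale for these levels. Mir708 lay between Mir410 (127 ± 38.9 CPM) and Mir671 (126 ± 3.01 CPM). Mir221 lay between Mir330 (84.5 ± 15.3 CPM) and Mir186 (78.0 ± 9.81 CPM), the second a known repressor of myogenin. Mir222 lay between Mir449a (13.7 ± 0.664 CPM) and Mir3107 (13.3 ± 2.34 CPM), and Mir31 between Mir7-1 (12.6 ± 0.694 CPM) and Mir7688 (11.0 ± 1.26 CPM). Mir489 lay between Mir1934 (1.91 ± 0.589 CPM) and Mir8115 (1.78 ± 1.19 CPM). The replicate values of each of these genes overlapped those of the regulator beside it.

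Summed by role, the genes tied to rest stood above those tied to division, because of Mir708. Mir31, Mir489 and Mir708 summed to 127 CPM in replicate 1 and to 155 CPM in replicate 2 (141 ± 19.8 CPM, SD, n = 2). Mir221 and Mir222 summed to 101 CPM in replicate 1 and to 88.8 CPM in replicate 2 (95.1 ± 8.93 CPM). The ratio of the Mir221 and Mir222 sum over that of the other regulators was 0.797 in replicate 1 (95% counting interval 0.677 to 0.938) and 0.572 in replicate 2 (0.503 to 0.650). In whole tissue, fewer cells of a type and less RNA per cell cannot be told apart, so this ratio does not give a share of resting or dividing cells.

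The seed partners of Mir708 and Mir489 were far more abundant than the regulators themselves. Mir708 had 115 and 139 CPM, against 2330 CPM in replicate 1 and 2309 CPM in replicate 2 for Mir28a, in an intron of Lpp. In replicate 1 the ratio of Mir28a over Mir708 was 20.4 (95% counting interval 18.1 to 22.9), and in replicate 2 it was 16.6 (15.3 to 18.1). Mir489 had 1.87 and 1.86 CPM, against 425 CPM in replicate 1 and 362 CPM in replicate 2 for Mir425, in an exon of the long noncoding gene 4833445I07Rik. In replicate 1 the ratio of Mir425 over Mir489 was 227 (97.0 to 700), and in replicate 2 it was 194 (98.4 to 451). Most reads from genes that carry these seeds thus came from Mir28a and Mir425, as far as pooled arms allow that to be said. The Mir221 and Mir222 seed had no such outside source among assigned reads. Mir1928, the only other gene with it, had 0 reads in both libraries. By counting error alone, that allows up to 1.12 CPM in replicate 1 and 0.699 CPM in replicate 2 (3 reads). Reads aligned to several places entered no gene, and copies of miR-1928 were not searched for.

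**Figure D3:**
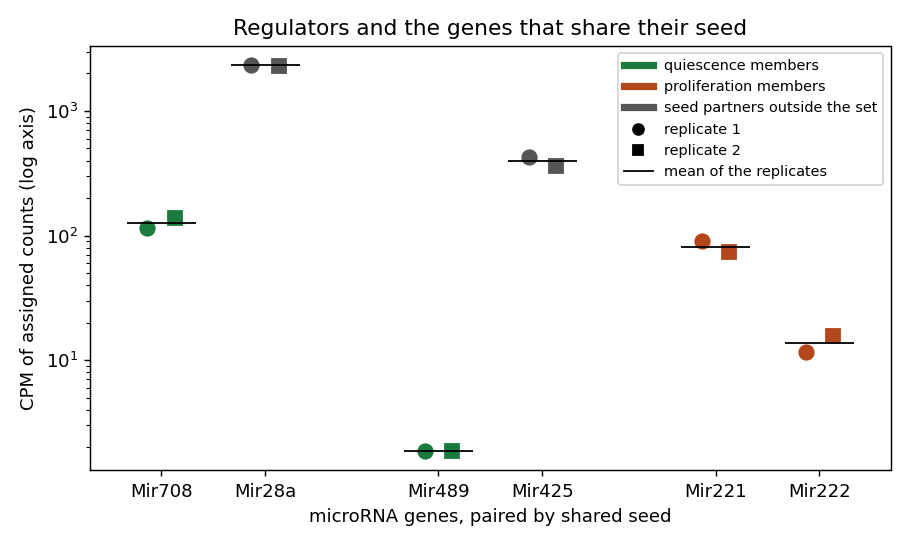
CPM (log axis) of Mir708 and Mir28a, of Mir489 and Mir425, and of Mir221 and Mir222, each pair sharing a seed, in replicate 1 (circles) and replicate 2 (squares) with the mean as a line. Mir28a (2320 CPM on average) and Mir425 (394 CPM) stand far above Mir708 and Mir489, while Mir221 stands above Mir222.

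Other microRNAs tied to satellite cells or to myogenic differentiation were set beside the regulators. Of 29 such genes in the annotation, 27 were expressed, beside 16.7% of all 2202 genes. The median was 233 CPM over the 29, expressed or not. It was 81.5 CPM over the 367 expressed genes and 0 CPM over all genes. Mir708 was lower than 17 of the 29, Mir221 than 19, Mir222 and Mir31 than 24 each, and Mir489 than 27. The most abundant were Mir378a (106759 ± 11740 CPM), which acts in metabolism and myoblast differentiation, Mir206 (89900 ± 7361 CPM), which restrains Pax7 during differentiation, and Mir322 (9510 ± 1184 CPM), which promotes cell cycle exit. In the list of rest or activation, 8 of 9 genes were expressed with a median of 401 CPM, and each of the 8 except Mir125b-2 (103 ± 0.308 CPM) was above all 5 regulators. Mir125b-1 and Mir125b-2 share 24 nt and both hold the whole mature miR-125b-5p, so their counts are lower bounds too. Mir195a, known to lower cell cycle genes in young satellite cells, had 7963 ± 253 CPM and led that list. Several genes of the differentiation list have identical copies (Mir1a, Mir133a, Mir26a, Mir24 and Mir181a among them), so their counts are also lower bounds.

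**Figure D4:**
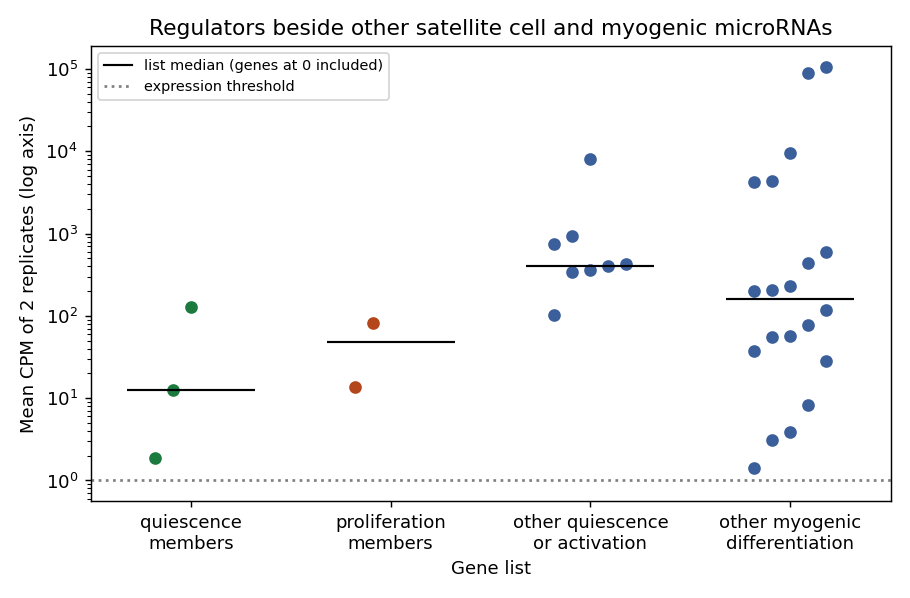
Mean CPM (log axis) of single genes in the regulators tied to rest and to division, the other genes of satellite cell rest or activation, and the other genes of myogenic differentiation, with list medians as lines. The regulators lie between 1.87 and 127 CPM and the median of the list of rest or activation is 401 CPM. Mir682, at 0 reads, is not drawn but enters its list's median.

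In these 5 genes the ratio of replicate 1 over replicate 2 lay between 0.743 and 1.23. The ratio of Mir708 over Mir221 was 1.275 in replicate 1 (95% counting interval 1.07 to 1.52) and 1.90 in replicate 2 (1.66 to 2.19). These intervals do not overlap. For 4 of the 5 both libraries reached 10 CPM, which allowed them to be set against other genes, and the 95% counting interval of replicate 1 over replicate 2 excluded 1 for Mir708 and Mir221. Over all 255 genes at that level it did so for 58.4%, so 2 of 4 is near the background. Mir708 was lower in replicate 1, with a ratio of 0.823 (0.715 to 0.946), and 32.2% of the 255 genes had an interval that lay wholly below 1. Mir221 was higher in replicate 1, with a ratio of 1.23 (1.03 to 1.46), and 26.3% of the genes had an interval wholly above 1. With all reads of the library as the denominator the ratio of Mir221 was 1.16 (0.976 to 1.38), an interval that includes 1. The ratios were 0.764 (0.473 to 1.21) for Mir31, 0.743 (0.469 to 1.15) for Mir222 and 1.00 (0.258 to 3.48) for Mir489, all with intervals that include 1.

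**Figure D5:**
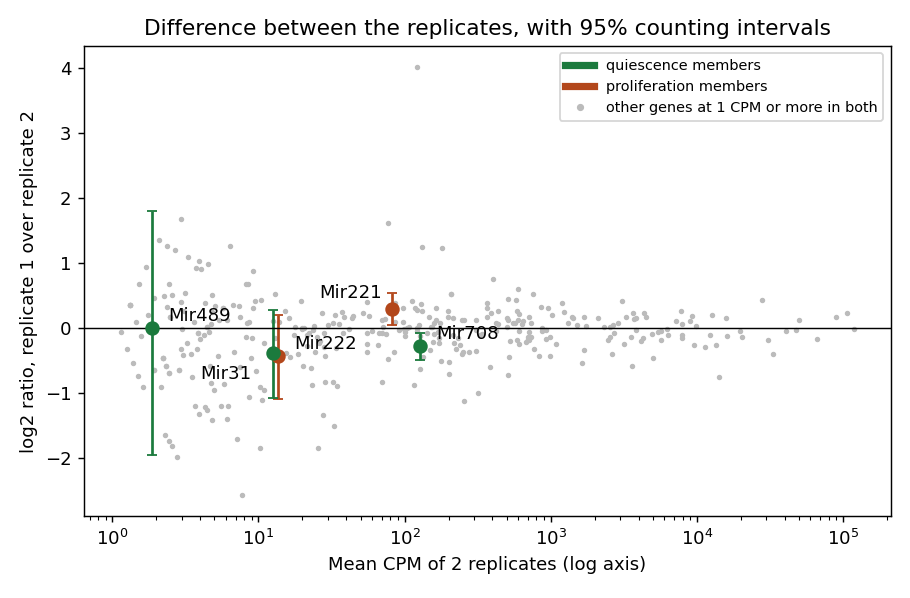
log2 ratio of replicate 1 over replicate 2 against mean CPM (log axis) for all 367 expressed genes, with the 5 regulators in colour and 95% counting intervals. Mir221 (0.30) lies above 0 and Mir708 (-0.28) below it, and the intervals widen towards Mir489, which has the fewest reads.

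These differences stayed within the range of most genes in the 2 libraries, though above the median. Among the 255 genes the median difference was 1.13-fold and 90% differed by less than 1.45-fold, a size that none of the 4 regulators at that level exceeded. The part of the 255 genes with a smaller difference was 67.8% for Mir708 and 69.4% for Mir221. It was 78.8% for Mir31 and 83.5% for Mir222. Markers of some other cell types also differed between the libraries, while the endothelial and the fibroblast and smooth muscle lists held nearly equal shares. The leukocyte list (5 of 5 expressed) held 0.185% in replicate 1 and 0.135% in replicate 2, and the erythroid list (2 of 2) held 0.0437% and 0.0185%. The fibroblast and smooth muscle list (4 of 5, with Mir199a-1 at 0 reads) held 2.43% and 2.54%, the epithelial list (5 of 7) 0.00782% and 0.00932%, and the liver marker Mir122 had 229 CPM and 14.2 CPM. The endothelial list (Mir126a expressed, Mir126b not) held 11.9% in each replicate. The part of other cell types in the levels of Mir221 and Mir708 was not tested.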

How the data were processed

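The authors deposited raw read counts per microRNA gene for each library, on mm10 with GENCODE M21, per the file headers of the deposit. No aligner or counter is named (not given in the sources used here). Each table has 3 count columns, read from their order and sums as without regard to strand, same strand and opposite strand, and 4 summary lines (66.6% of reads in replicate 1 and 64.6% in replicate 2) that stayed out of totals.

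From the same-strand column CPM, means and SD (n = 2), exact (Clopper-Pearson) 95% intervals and ratios between replicates, with intervals from the exact binomial split of reads, were computed in Python 3.11.15 (numpy 2.4.6, pandas 2.3.3, scipy 1.17.1). The ratio script was tested on simulated counts with counting error only. That setting does not show how the intervals cover other variation between libraries. With 1 group no test between groups was made. The libraries were kept as 2 samples because the labels number them as separate biological replicates. Their counts differed beyond counting error (intervals without 1 in 58.4% of the 255 genes at 10 CPM or more), which does not tell separate animals from separate preparations of one RNA. GENCODE transcripts and RefSeq tables gave positions, shared stretches and mature sequences, and copies outside annotated transcripts were not examined.

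Members and lists were chosen with earlier results of these data known. Genes named beside the 5 lie within 10 kb, carry a shared seed on any arm, stand next in mean CPM or lead the list of other myogenic genes. Of the list entries, Mir497a, Mir486a, Mir486b, Mir145 and Mir142hg had no gene of that name in the annotation. Alternatives covered the strand column, denominators, TMM (edgeR 4.0.16) and DESeq2 1.42.0 size factors, thresholds and each replicate alone.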

Additional observations from a re-analysis of the deposited data

How the results depend on the processing

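The order of the 5 genes was the same with unstranded counts and with CPM divided by hairpin length. Denominators and size factors scale all 5 genes of a library alike, and both replicates share the order. Those alternatives, and each replicate alone, therefore could not change it. The order of Mir222 and Mir31 stays unsettled because their replicate values overlap. The CPM levels of the 5 genes depend on the denominator. With unstranded counts the levels were 16.8 CPM for Mir31, 2.51 for Mir489, 171 for Mir708, 110 for Mir221 and 18.3 for Mir222, with a summed share of 0.0318%, because fewer reads were assigned in that column (1963516 and 3227243). Over the total without the 10 most abundant genes, they were 32.4, 4.84, 328, 211 and 35.1 CPM in the same gene order and 0.0611%, and over all reads of the library 4.33, 0.642, 43.7, 27.9 and 4.70 CPM and 0.00813%. Of the 5 genes, 4 counted as expressed over all reads of the library (Mir489 did not) and at a threshold of 10 CPM, and 1 did at 100 CPM. Of all 2202 genes, 255 reached 10 CPM and 169 reached 100 CPM in both replicates. The number of all genes expressed over all reads of the library is not given here. Over all reads the ratio of Mir221 between replicates was 1.16 (0.976 to 1.38), no longer excluding 1, while that of Mir708 excluded 1 under each scaling tried. These aside, the values stayed within their spread or within 1.5 times the main count, with TMM and DESeq2 scaling, each replicate alone and 2 alternatives added after seeing the data (hairpin length, sums over a shared seed) included. No paired analysis was possible because there is only 1 group. Depth limits Mir489 most, at 5 and 8 reads.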

Other observations

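The unevenness of Mir221 and Mir222 was set beside other neighbouring microRNA genes, a comparison chosen after their values were seen. On the same strand and within 10 kb of each other, 95 pairs of neighbouring genes had both members expressed. The median difference between the mean CPM of partners was 5.99-fold, with an interquartile range of 2.31 to 28.1. Mir221 and Mir222 were themselves that median pair, since 47 pairs were less far apart. Mir489 and Mir653 differed 3.08-fold, and 30 pairs were less far apart. Without chromosome 12, which holds the large imprinted Dlk1-Meg3 cluster, 52 pairs remained with a median of 10.5-fold, and 21 of them were less far apart than Mir221 and Mir222. Pairs of one cluster share genes with each other and some have identical copies elsewhere, so these counts describe the libraries and carry no test.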
